A study of Mus musculus with 15 samples.

Results

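The genes described are 10 regulators of mitochondrial apoptosis from the BCL2 family: the anti-apoptotic Bcl2, Bcl2l1 and Mcl1, the multidomain pro-apoptotic Bax and Bak1, and the BH3-only genes Bcl2l11, Bid, Bbc3, Pmaip1 and Bmf. They were chosen by symbol, with earlier results of these data known. The 4 deposited tables were joined into one with a single row per gene identifier, which gave 11551 genes, and all 10 were among them, each under 1 identifier.

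RNA was sequenced from 15 libraries of mouse Abelson pre-B cells, in 5 groups of 3. Abelson lines are early B-lineage cells that v-Abl has transformed, and all 5 groups had been exposed to imatinib, an inhibitor of Abl kinases, for 48 h. Art_shBCLAF1 and Art are Art -/- cells with and without a short hairpin RNA named shBCLAF1. Rag_SPIC_tet_DOX_shBCLAF1, Rag_SPIC_tet_DOX and Rag_SPIC_tet_NoDOX are Rag -/- cells whose names carry SPIC_tet: the first is labelled with both DOX and the hairpin, the second with DOX alone and the third with neither. All were at passage 10 to 15. The labels name no control hairpin and no second line of either genotype, so genotype and line cannot be told apart, nor can the hairpin and its delivery. They also leave unstated if a group's 3 libraries came from different cultures, and the p-values below measure only the spread between these libraries.

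BCL2-family proteins decide whether the outer membrane of mitochondria is opened during apoptosis. BAX and BAK1 form the pores, the anti-apoptotic proteins hold them and the BH3-only proteins in check, and the BH3-only proteins pass on stress signals by binding both. In B-cell progenitors the loss of cytokine or kinase signals is a known trigger of BIM, the product of Bcl2l11, and p53 is a known activator of Bbc3 (PUMA), Pmaip1 (NOXA) and Bax.

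Effective library sizes were 17.2 to 27.1 M reads in 14 libraries and 5.81 M in Art replicate 3, which listed 145 genes at 0 reads, against 19 to 56 in the others. The members were well covered, with 131 reads at the lowest (Bid in Art replicate 3) and 41782 at the highest (Bcl2 in an Art library). Bclaf1, the gene named in the hairpin, had 8.32 ± 0.03 log2 CPM in Art_shBCLAF1 and 7.32 ± 0.79 in Art, and 8.04 ± 0.06 in Rag_SPIC_tet_DOX_shBCLAF1 and 7.73 ± 0.04 in Rag_SPIC_tet_DOX (SD, n = 3 each). The difference of 0.32 ± 0.06 (SE) in Rag cells passed limma's test (Benjamini-Hochberg adjusted p = 0.0054) and lay opposite to a knockdown, so the groups are called "labelled shBCLAF1" wherever a direction is drawn from them. Spic averaged 4.54 log2 CPM in Art_shBCLAF1, 0.44 in Art, 7.46 in Rag_SPIC_tet_DOX_shBCLAF1, 4.21 in Rag_SPIC_tet_DOX and 0.82 in Rag_SPIC_tet_NoDOX.

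Here and below, a gene is called measured if it is among the 11551 joined genes. The authors' tests had selected these, so a gene that is missing was not shown to be unexpressed. All 10 genes of a pre-B marker list were measured, and their summed level was 5505 to 6186 CPM in Art_shBCLAF1, 11961 to 12455 in Art, 7017 to 7283 in Rag_SPIC_tet_DOX_shBCLAF1, 8188 to 12103 in Rag_SPIC_tet_DOX and 9780 to 10384 in Rag_SPIC_tet_NoDOX. The 7 measured of 10 myeloid markers summed to 80.4 to 97.9 CPM in Art_shBCLAF1, 696 to 928 in Art, 58.8 to 64.3 in Rag_SPIC_tet_DOX_shBCLAF1, 222 to 314 in Rag_SPIC_tet_DOX and 335 to 346 in Rag_SPIC_tet_NoDOX. The sum was higher in Art than in Rag_SPIC_tet_NoDOX, but 1 of the 7 markers was higher and 3 were lower in limma. Their median difference was -1.06. Gene by gene in limma, 0 pre-B markers were higher and 7 lower for Art_shBCLAF1 against Art, and 2 higher and 4 lower for Rag_SPIC_tet_DOX_shBCLAF1 against Rag_SPIC_tet_DOX (4 and 4 without Rag_SPIC_tet_DOX replicate 2). Of the myeloid markers 1 was higher and 3 lower in the Art pair, where Itgam averaged 4.65 log2 CPM in Art_shBCLAF1 against 9.65 in Art while Fcgr3 was higher by 1.27 (limma adjusted p = 0.000423), and all 7 were lower in the Rag_SPIC_tet_DOX pair. The 2 measured of 9 T and NK cell markers (Lck and Klrb1c) summed to 10.8 to 11 CPM in Art_shBCLAF1 against 87.7 to 112 in Art, and to 27.3 to 29.0 CPM in Rag_SPIC_tet_DOX_shBCLAF1 against 41.2 to 50.7 in Rag_SPIC_tet_DOX. The 3 measured of 7 erythroid and megakaryocyte markers summed to 5.17 to 7.29 CPM in Art_shBCLAF1, 11.9 to 13.8 in Art, 5.07 to 5.67 in Rag_SPIC_tet_DOX_shBCLAF1, 5.87 to 7.47 in Rag_SPIC_tet_DOX and 7.45 to 9.84 in Rag_SPIC_tet_NoDOX. All 5 plasma-cell markers were measured, at 424 to 466 CPM in Art_shBCLAF1, 542 to 674 in Art, 491 to 514 in Rag_SPIC_tet_DOX_shBCLAF1, 440 to 606 in Rag_SPIC_tet_DOX and 611 to 629 in Rag_SPIC_tet_NoDOX. No measured marker was at 0 in all 3 libraries of a group, and the part of these markers in the changes of the BCL2 family was not tested. In bulk RNA, fewer cells of a type and less RNA per cell cannot be told apart.

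From RefSeq's promoter table (GRCm38.p6) 16 start windows of 9 of the 10 members were searched. Pmaip1 was left out of the search, so the counts below do not cover it. The 250 bases before each start were searched on both strands for GTAAACA, the core bound by FOXO factors, for GAGGAA, the PU-box core of SPIC and its ETS relatives, and for CACGTG, the E-box bound by MYC. Of the windows with a FOXO or PU-box core, 4 are shown, with the match in capitals (on the strand printed, or as its reverse complement). Windows of Bid and Bak1 hold the PU-box core too and are not printed. The other windows of Bmf, Bcl2l11 and Bbc3 lack the core that is printed for that gene.
Bcl2l11, chr2:128125788-128126037, plus strand, FOXO core: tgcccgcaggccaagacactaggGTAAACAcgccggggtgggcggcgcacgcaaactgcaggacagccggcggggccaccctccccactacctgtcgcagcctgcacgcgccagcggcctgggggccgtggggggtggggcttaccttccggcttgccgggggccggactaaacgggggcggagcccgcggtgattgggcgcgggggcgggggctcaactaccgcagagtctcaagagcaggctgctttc
Bbc3, chr7:16310011-16310260, plus strand, FOXO core as its reverse complement: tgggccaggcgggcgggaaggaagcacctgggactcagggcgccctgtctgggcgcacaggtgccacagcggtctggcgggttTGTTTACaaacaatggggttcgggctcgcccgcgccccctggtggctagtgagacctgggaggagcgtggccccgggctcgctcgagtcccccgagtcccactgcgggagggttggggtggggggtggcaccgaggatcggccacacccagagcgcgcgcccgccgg
Bcl2, chr1:106714291-106714540, minus strand, PU-box core as its reverse complement: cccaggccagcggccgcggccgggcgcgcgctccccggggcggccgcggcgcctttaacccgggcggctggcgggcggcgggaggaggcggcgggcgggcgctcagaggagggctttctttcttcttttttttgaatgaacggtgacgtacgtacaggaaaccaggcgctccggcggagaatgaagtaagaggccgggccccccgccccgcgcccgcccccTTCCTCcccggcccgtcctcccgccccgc
Bmf, chr2:118544588-118544837, minus strand, PU-box core: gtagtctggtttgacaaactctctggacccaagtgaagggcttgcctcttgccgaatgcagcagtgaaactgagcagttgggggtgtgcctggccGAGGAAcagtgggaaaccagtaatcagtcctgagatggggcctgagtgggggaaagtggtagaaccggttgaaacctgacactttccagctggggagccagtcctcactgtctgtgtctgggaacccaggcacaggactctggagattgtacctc
The FOXO core was found in 2 of the 16 windows, against 3.17% of 32851 windows of the same length over all genes. The PU-box core was in 4 (also at Bid and Bak1), against 23.3% of all windows, and the E-box in 2 (Bax and a second Bbc3 window that overlaps the one printed), against 6.02%. The matches are descriptions of the sequence, and no binding was measured.

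The 10 mRNAs differed widely in how far they moved. The distance between the highest and the lowest group mean was 2.74 log2 units for Pmaip1 (6.70-fold), 2.44 for Bcl2 (5.44-fold), 2.36 for Bmf (5.15-fold) and 1.66 for Bbc3 (3.15-fold). It was 1.06 for Bid, 0.86 for Bcl2l11, 0.85 for Bak1, 0.68 for Bax, 0.46 for Bcl2l1 and 0.31 for Mcl1. Of the 10, 9 passed limma's F test over the 5 groups (Benjamini-Hochberg adjusted p from 4.73e-07 for Bcl2 to 0.000741 for Bcl2l1), and 74.0% of all genes passed as well. Mcl1 did not pass (adjusted p = 0.341 in limma). The authors' tests on these same groups had selected the 11551 genes. Passing here was thus largely set in advance and is no separate evidence of a difference. Shares of all genes, here and below, are shares of those selected genes.

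**Figure D1:**
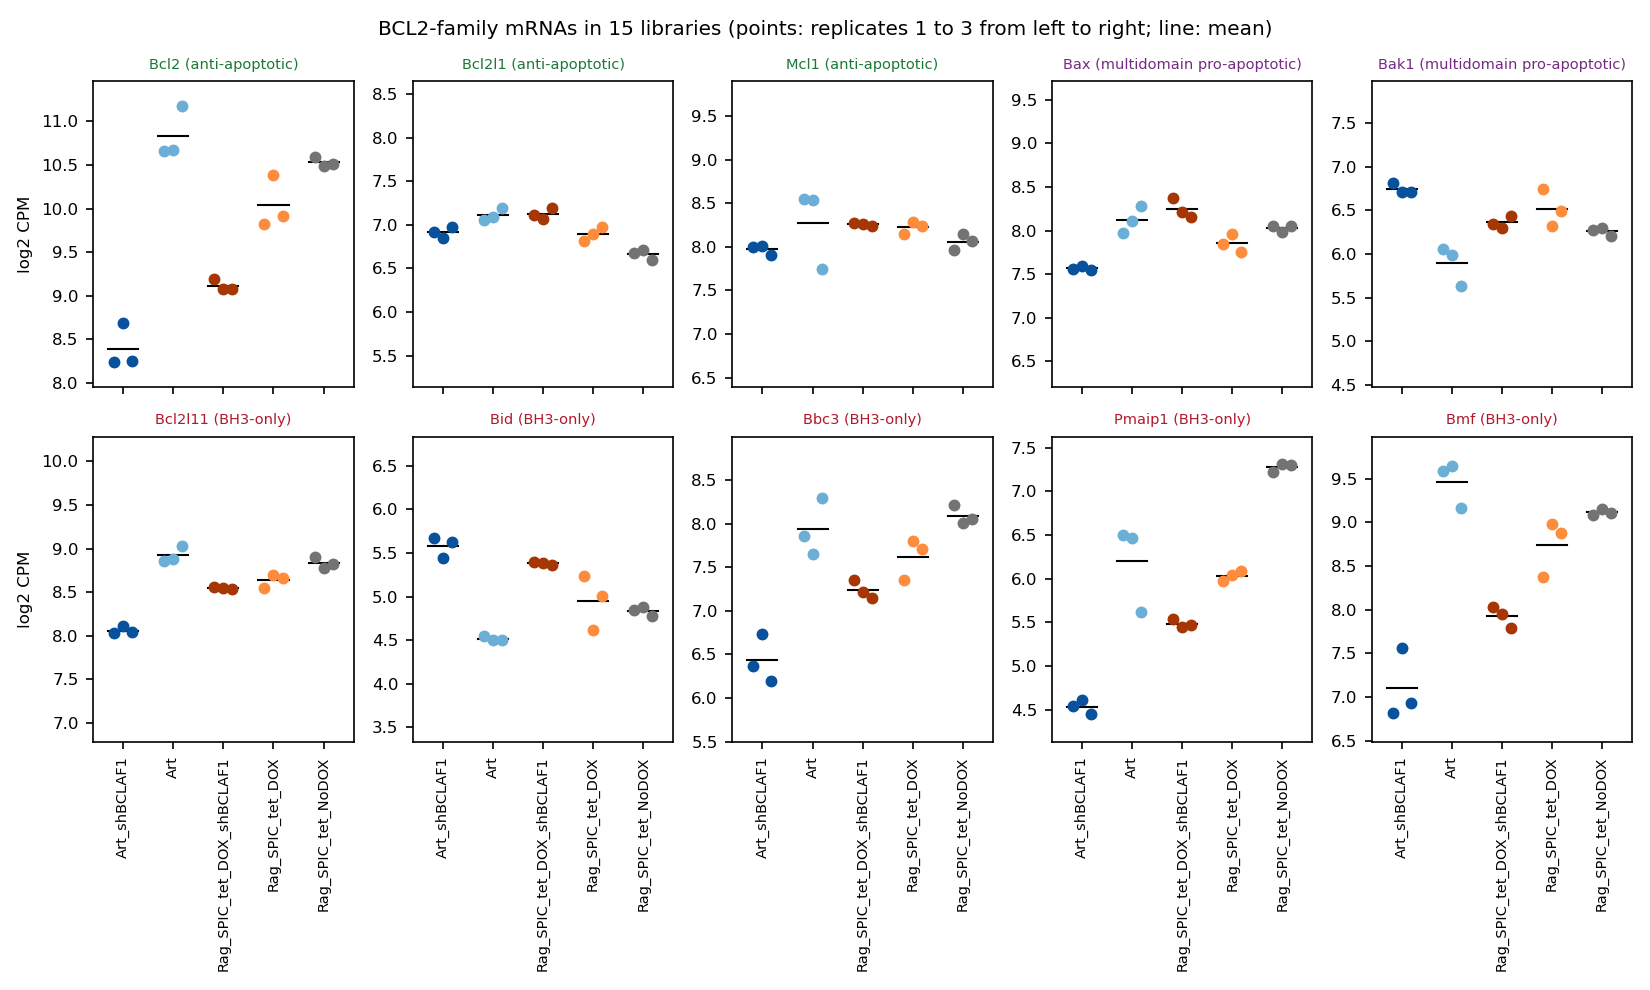
Level of each of the 10 members in log2 CPM (vertical axis, equal span in every panel) in the 3 libraries of each group (points, replicates 1 to 3 from left to right), with the group mean as a line. Bcl2 and Bmf are lowest in Art_shBCLAF1 and highest in Art, Pmaip1 is highest in Rag_SPIC_tet_NoDOX, and Bid is highest in Art_shBCLAF1.

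Among the anti-apoptotic genes, Bcl2, which keeps BIM and BAX in check, carried most of the movement. It had 8.24, 8.69 and 8.25 log2 CPM in Art_shBCLAF1, 10.66, 10.68 and 11.18 in Art, 9.20, 9.08 and 9.08 in Rag_SPIC_tet_DOX_shBCLAF1, 9.82, 10.39 and 9.92 in Rag_SPIC_tet_DOX, and 10.60, 10.49 and 10.51 in Rag_SPIC_tet_NoDOX. The order of the means was Art, Rag_SPIC_tet_NoDOX, Rag_SPIC_tet_DOX, Rag_SPIC_tet_DOX_shBCLAF1 and Art_shBCLAF1, and no neighbours in that order overlapped.

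Bcl2l1, whose product BCL-XL is the other long-lived inhibitor of BAX and BAK1, kept within a narrow band. Its mean was 6.91 ± 0.07 log2 CPM in Art_shBCLAF1, 7.11 ± 0.07 in Art, 7.12 ± 0.06 in Rag_SPIC_tet_DOX_shBCLAF1, 6.89 ± 0.08 in Rag_SPIC_tet_DOX and 6.66 ± 0.06 in Rag_SPIC_tet_NoDOX (SD, n = 3 each). The top pair, Rag_SPIC_tet_DOX_shBCLAF1 and Art, overlapped, as did Art_shBCLAF1 and Rag_SPIC_tet_DOX, while Rag_SPIC_tet_NoDOX lay below all others. Mcl1, a short-lived inhibitor that NOXA targets, had 8.0, 8.01 and 7.91 log2 CPM in Art_shBCLAF1, 8.55, 8.54 and 7.74 in Art, 8.28, 8.26 and 8.23 in Rag_SPIC_tet_DOX_shBCLAF1, 8.15, 8.28 and 8.24 in Rag_SPIC_tet_DOX, and 7.96, 8.15 and 8.07 in Rag_SPIC_tet_NoDOX. The Art libraries alone spanned every other group, with replicate 3 at the bottom of all 15 values and the other Art libraries at the top.

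The pore-forming genes did not move together. Bax had 7.56, 7.60 and 7.55 log2 CPM in Art_shBCLAF1, 7.97, 8.10 and 8.28 in Art, 8.37, 8.21 and 8.16 in Rag_SPIC_tet_DOX_shBCLAF1, 7.85, 7.96 and 7.76 in Rag_SPIC_tet_DOX, and 8.06, 7.98 and 8.05 in Rag_SPIC_tet_NoDOX. Art_shBCLAF1 lay below all other libraries, and the top 3 groups (Rag_SPIC_tet_DOX_shBCLAF1, Art and Rag_SPIC_tet_NoDOX) each overlapped the next. Bak1 had 6.81, 6.71 and 6.71 log2 CPM in Art_shBCLAF1, 6.06, 5.99 and 5.64 in Art, 6.34, 6.30 and 6.44 in Rag_SPIC_tet_DOX_shBCLAF1, 6.74, 6.32 and 6.50 in Rag_SPIC_tet_DOX, and 6.27, 6.30 and 6.20 in Rag_SPIC_tet_NoDOX. Art lay below all other libraries, and the other 4 groups formed a chain in which each overlapped the next.

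Among the BH3-only genes, Bmf, which is held at the cytoskeleton until released by stress, followed the same order of groups as Bcl2. It had 6.82, 7.56 and 6.93 log2 CPM in Art_shBCLAF1, 9.59, 9.65 and 9.17 in Art, 8.03, 7.95 and 7.79 in Rag_SPIC_tet_DOX_shBCLAF1, 8.37, 8.99 and 8.88 in Rag_SPIC_tet_DOX, and 9.09, 9.16 and 9.11 in Rag_SPIC_tet_NoDOX. Again no neighbours in the order overlapped. Pmaip1, the p53 target whose product NOXA binds MCL1, had 4.54, 4.61 and 4.45 log2 CPM in Art_shBCLAF1, 6.50, 6.47 and 5.62 in Art, 5.54, 5.44 and 5.46 in Rag_SPIC_tet_DOX_shBCLAF1, 5.97, 6.04 and 6.09 in Rag_SPIC_tet_DOX, and 7.22, 7.31 and 7.30 in Rag_SPIC_tet_NoDOX. Rag_SPIC_tet_NoDOX lay above all other libraries and Art_shBCLAF1 below them, and Art overlapped Rag_SPIC_tet_DOX in between.

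Bbc3, whose product PUMA binds every anti-apoptotic member, had 6.37, 6.73 and 6.20 log2 CPM in Art_shBCLAF1, 7.85, 7.66 and 8.29 in Art, 7.35, 7.22 and 7.14 in Rag_SPIC_tet_DOX_shBCLAF1, 7.35, 7.80 and 7.71 in Rag_SPIC_tet_DOX, and 8.21, 8.01 and 8.06 in Rag_SPIC_tet_NoDOX. Art_shBCLAF1 lay below all other libraries and each of the other groups overlapped its neighbour. Bcl2l11 had 8.03, 8.11 and 8.04 log2 CPM in Art_shBCLAF1, 8.85, 8.88 and 9.03 in Art, 8.56, 8.54 and 8.54 in Rag_SPIC_tet_DOX_shBCLAF1, 8.55, 8.70 and 8.66 in Rag_SPIC_tet_DOX, and 8.90, 8.78 and 8.82 in Rag_SPIC_tet_NoDOX. Its values formed 3 tiers, with Art and Rag_SPIC_tet_NoDOX at the top, both DOX groups in the middle and Art_shBCLAF1 at the bottom.

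Bid, the link from death receptors and caspase 8 to mitochondria, ran the other way. It had 5.67, 5.44 and 5.62 log2 CPM in Art_shBCLAF1, 4.55, 4.50 and 4.50 in Art, 5.40, 5.39 and 5.36 in Rag_SPIC_tet_DOX_shBCLAF1, 5.24, 4.61 and 5.01 in Rag_SPIC_tet_DOX, and 4.85, 4.88 and 4.77 in Rag_SPIC_tet_NoDOX. Both groups labelled shBCLAF1 were above all other libraries, Art was below them, and Rag_SPIC_tet_DOX, the widest group, overlapped Rag_SPIC_tet_NoDOX.

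The comparison of Art_shBCLAF1 with Art asks what changed with the hairpin label in Art -/- cells. In limma over 6 libraries with Benjamini-Hochberg adjustment, 8 of the 10 members changed, 2 higher and 6 lower in Art_shBCLAF1, where 25.0% of all genes were higher and 24.1% lower. The fallers included an anti-apoptotic gene and pro-apoptotic ones: Bcl2 fell by 2.44 ± 0.21 on the log2 scale (SE; 5.44-fold lower, adjusted p = 0.000343 in limma) and Bmf fell by 2.36 ± 0.24 (5.15-fold lower, limma adjusted p = 0.000608). Pmaip1 fell by 1.67 ± 0.25 (limma adjusted p = 0.00266), Bbc3 fell by 1.50 ± 0.22 (limma adjusted p = 0.00222), Bcl2l11 fell by 0.86 ± 0.11 (limma adjusted p = 0.00133) and Bax fell by 0.55 ± 0.12 (limma adjusted p = 0.0103). Bid rose by 1.06 ± 0.12 (2.09-fold, limma adjusted p = 0.000912) and Bak1 by 0.85 ± 0.15 (1.80-fold, limma adjusted p = 0.00412). Bcl2l1, at -0.20 ± 0.11 (limma adjusted p = 0.161), and Mcl1, at -0.31 ± 0.24 (limma adjusted p = 0.321), did not pass.

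The groups did not overlap for 9 of the 10 members, all but Mcl1, where 65.6% of all genes did not. The median difference was -1.50 over the 5 BH3-only genes, -0.31 over the 3 anti-apoptotic ones, 0.15 over Bax and Bak1, and -0.71 over all 10, beside 0.05 over all genes. Bax did not pass without Art_shBCLAF1 replicate 1 (limma adjusted p = 0.0515) or replicate 3 (limma adjusted p = 0.0557). Without Art replicate 3, the library of low depth, all 10 members passed (2 higher and 8 lower, beside 40.6% and 39.5% of all genes), among them Mcl1 at -0.57 (limma adjusted p = 4.76e-06), Bcl2l1 at -0.16 (limma adjusted p = 0.0293) and Pmaip1 at -1.95. With every library centred on its own median, which shifts the median of all genes by -0.23, 37.5% of the changed genes of the whole table were higher in Art_shBCLAF1, against 50.9% with the deposited scaling, and the members' split was 2 higher and 7 lower.

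Rag_SPIC_tet_DOX_shBCLAF1 against Rag_SPIC_tet_DOX sets the same label within the cells given DOX. Here 6 of the 10 members changed in limma, 2 higher and 4 lower, beside 28.5% of all genes higher and 25.1% lower. Bcl2 fell by 0.93 ± 0.15 on the log2 scale (1.90-fold lower, limma adjusted p = 0.00371), Bmf fell by 0.82 ± 0.16 (1.77-fold lower, limma adjusted p = 0.00736), Pmaip1 fell by 0.55 ± 0.06 (limma adjusted p = 0.00111) and Bbc3 fell by 0.38 ± 0.13 (limma adjusted p = 0.0408), though the groups overlapped for Bbc3 at 7.35 log2 CPM. Bax rose by 0.39 ± 0.08 (limma adjusted p = 0.00925) and Bcl2l1 by 0.23 ± 0.07 (limma adjusted p = 0.0277). Bid, at 0.43 ± 0.15 (limma adjusted p = 0.0547), was above Rag_SPIC_tet_DOX in every library without passing, and Bak1 (-0.16 ± 0.11), Bcl2l11 (-0.09 ± 0.06) and Mcl1 (0.03 ± 0.06) did not pass either (limma adjusted p = 0.269, 0.273 and 0.673).

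The groups did not overlap for 6 members (Bcl2, Bcl2l1, Bax, Bid, Pmaip1 and Bmf), where 66.1% of all genes did not, and the median difference was -0.12 over the 10 members beside 0.05 over all genes. Centring each library on its median, which shifts the median of all genes by -0.10, turned the members' split of 2 higher and 4 lower into 0 higher and 5 lower, while the share of higher genes among all changed genes was 45.0%, against 53.2% with the deposited scaling. Bax (0.29, limma adjusted p = 0.0528) and Bcl2l1 (0.13, limma adjusted p = 0.301) no longer passed and Bak1 (-0.26, limma adjusted p = 0.0478) did. Rag_SPIC_tet_DOX replicate 2 was the nearest of its group to Rag_SPIC_tet_NoDOX in Bcl2, Bmf and Bbc3 and had the lowest Myc, at 3.76 log2 CPM against 8.06 and 6.83 in the other two. Without it 3 members were higher (Bax, Bcl2l1 and Bid, the last at 0.26 with a limma adjusted p of 0.0396) and 4 lower (Bcl2, Bmf, Pmaip1 and Bak1), beside 30.6% and 25.6% of all genes, and Bbc3 no longer passed (-0.29, limma adjusted p = 0.0638). Bbc3 also did not pass without Rag_SPIC_tet_DOX replicate 3 or any one of the Rag_SPIC_tet_DOX_shBCLAF1 libraries (limma adjusted p between 0.0653 and 0.130), nor Bcl2l1 without any one of the Rag_SPIC_tet_DOX_shBCLAF1 libraries (limma adjusted p between 0.0629 and 0.107). Fitted with the replicate number as a block, Bcl2l1 (limma adjusted p = 0.0559) and Bbc3 (limma adjusted p = 0.0768) did not pass.

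Art against Rag_SPIC_tet_NoDOX sets the cells without hairpin or DOX side by side and shares the Art libraries with the first comparison. No member passed limma's test, where 2.58% of all genes were higher and 2.56% lower. At unadjusted p below 0.05 there were 4 members, beside 21.7% of all genes. The largest differences were Pmaip1 at -1.08 ± 0.25 (limma adjusted p = 0.0683) and Bcl2l1 at 0.45 ± 0.10 (limma adjusted p = 0.063). Bak1 was at -0.37, Bmf at 0.35, Bid at -0.32, Bcl2 at 0.31, Mcl1 at 0.22, Bbc3 at -0.16, and Bax and Bcl2l11 at 0.09 each. The groups did not overlap for 6 members (Bcl2, Bcl2l1, Bak1, Bid, Pmaip1 and Bmf), where 37.9% of all genes did not, and the median was 0.09 over the members beside -0.03 over all genes.

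This comparison turned on Art replicate 3. Without it 7 members passed, 3 higher and 4 lower, and so did 23.2% of all genes higher and 24.2% lower. Bmf (0.50, limma adjusted p = 1.77e-06), Mcl1 (0.49, limma adjusted p = 2.77e-06) and Bcl2l1 (0.41, limma adjusted p = 1.40e-05) were then higher in Art. Pmaip1 (-0.79, limma adjusted p = 2.55e-09), Bbc3 (-0.34, limma adjusted p = 0.000606), Bid (-0.31, limma adjusted p = 0.00407) and Bak1 (-0.24, limma adjusted p = 0.00468) were lower. The authors' deposited table for this pair lists 7 of the members, in the directions found here, with Pmaip1 at 0.81 (Rag_SPIC_tet_NoDOX minus Art, adjusted p = 1.04e-10). The authors' values rest on the same libraries, so like directions, here and below, are no separate evidence.

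Rag_SPIC_tet_DOX against Rag_SPIC_tet_NoDOX sets the cells given DOX, the agent that switches on tetracycline-controlled constructs, beside those without. Pmaip1 alone passed, as 1 of 10 lower members beside 8.67% of all genes, and 3.16% of all genes were higher. It fell by 1.24 ± 0.07 on the log2 scale (2.37-fold lower, limma adjusted p = 0.00109). At unadjusted p below 0.05 there were 6 members, beside 34.2% of all genes. Bcl2 was at -0.49 ± 0.16 (limma adjusted p = 0.0826), Bbc3 at -0.47 ± 0.13 (limma adjusted p = 0.0525) and Bmf at -0.37 ± 0.16 (limma adjusted p = 0.139), while Bak1 (0.26), Bcl2l1 (0.23), Mcl1 (0.17), Bid (0.12), Bax (-0.17) and Bcl2l11 (-0.20) differed less.

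The groups did not overlap for 9 of the 10 members, all but Bid, where 40.7% of all genes did not, and the median was -0.19 over the members and 0.00469 over all genes. Without Rag_SPIC_tet_DOX replicate 2, 7 members passed: Bak1 (0.36, limma adjusted p = 0.0116) and Bcl2l1 (0.23, limma adjusted p = 0.0485) higher, and Pmaip1 (-1.25, limma adjusted p = 1.28e-05), Bcl2 (-0.66, limma adjusted p = 0.000947), Bbc3 (-0.56, limma adjusted p = 0.00312), Bmf (-0.49, limma adjusted p = 0.0127) and Bax (-0.23, limma adjusted p = 0.0384) lower. The same setting called 20.0% of all genes higher and 19.6% lower. Without replicate 1 of that group, Pmaip1 and Bbc3 (-0.34, limma adjusted p = 0.0369) passed as lower and Bcl2l1 (0.28, limma adjusted p = 0.0430) as higher. The authors' deposited table for this pair lists 9 of the members, all in the directions found here, with Pmaip1 at 1.21 (Rag_SPIC_tet_NoDOX minus Rag_SPIC_tet_DOX, adjusted p = 1.31e-14).

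The authors' deposited tables for the pairs that differ in the hairpin label list all 10 members for Art and 9 for Rag_SPIC_tet_DOX, each in the direction found here. They include Bcl2 at 2.36 (Art minus Art_shBCLAF1, adjusted p = 1.5e-18) and Mcl1 at 0.59 (Art minus Art_shBCLAF1, adjusted p = 1.65e-11).

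**Figure D2:**
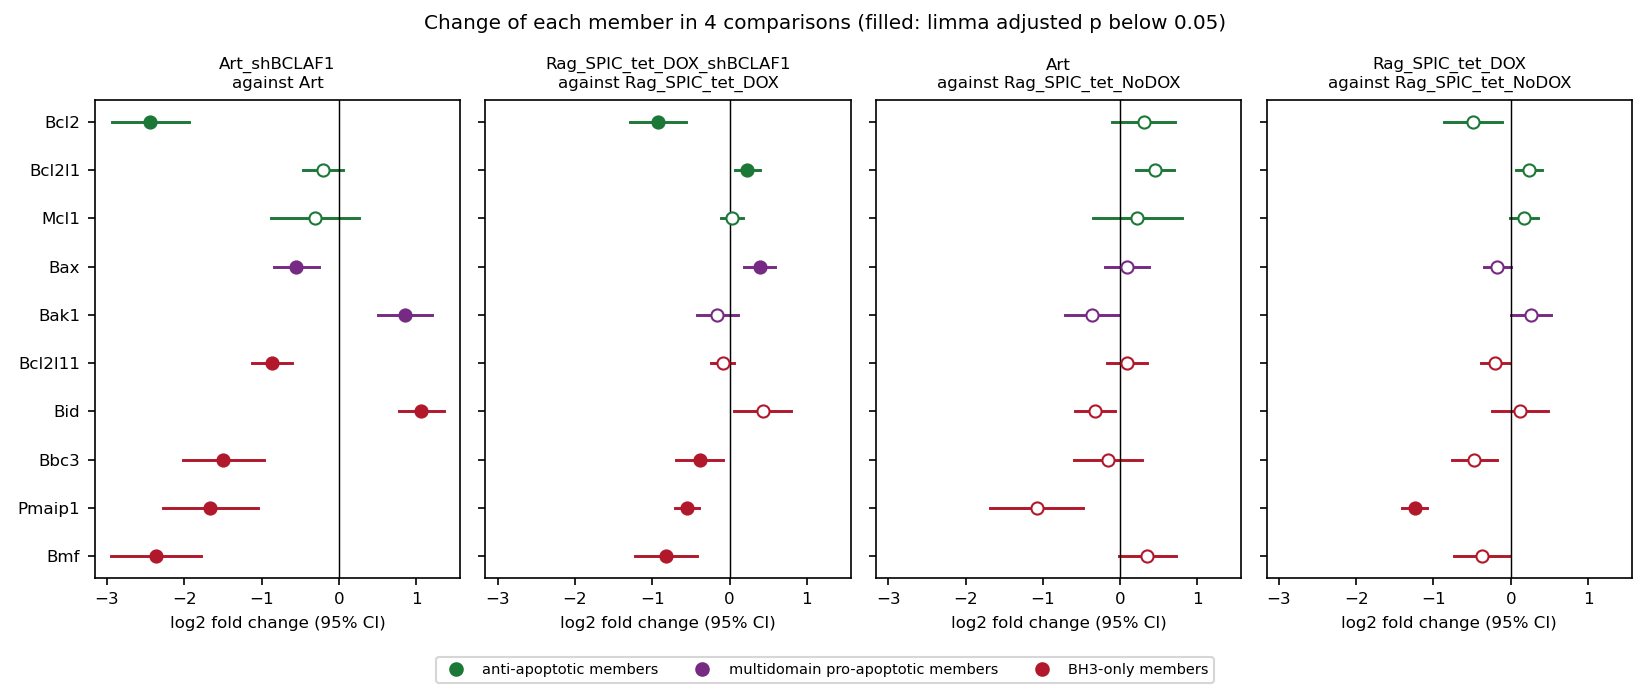
Log2 fold change of each member (horizontal axis, points with 95% confidence intervals from limma) in the 4 comparisons, filled where the adjusted p was below 0.05, coloured by role. The widest changes are those of Bcl2 (-2.44) and Bmf (-2.36) for Art_shBCLAF1 against Art, and Pmaip1 (-1.24) is the filled point for Rag_SPIC_tet_DOX against Rag_SPIC_tet_NoDOX.

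Whether the difference that goes with the hairpin label was the same in both pairs was tested with an interaction term over 12 libraries. By the labels both groups of the Rag pair carry SPIC_tet and DOX, and neither Art group does. Line, SPIC_tet and DOX therefore cannot be told apart in the term. Spic mRNA was not level within either pair. It averaged 4.54 log2 CPM in Art_shBCLAF1 against 0.44 in Art, and 7.46 in Rag_SPIC_tet_DOX_shBCLAF1 against 4.21 in Rag_SPIC_tet_DOX. Its part in the members' changes was not tested. The difference that goes with the label was not the same for 9 of the 10 members in limma, 2 with a positive and 7 with a negative term. Beside them, 14.3% of all genes had a positive and 17.0% a negative term. A negative term means a lower value for Art_shBCLAF1 minus Art than for Rag_SPIC_tet_DOX_shBCLAF1 minus Rag_SPIC_tet_DOX. Bmf (-1.54 ± 0.31, limma adjusted p = 0.00406), Bcl2 (-1.52 ± 0.27, limma adjusted p = 0.00207), Bbc3 (-1.12 ± 0.27, limma adjusted p = 0.0095) and Pmaip1 (-1.11 ± 0.28, limma adjusted p = 0.0114) were lower with the label in both lines and further down in Art cells. Bcl2l11 (-0.78 ± 0.12, limma adjusted p = 0.000947) fell with the label in Art cells and differed by -0.09 in the Rag_SPIC_tet_DOX pair.

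Bax changed in opposite directions, -0.55 in the Art pair and 0.39 in the Rag_SPIC_tet_DOX pair, with a term of -0.94 ± 0.15 (limma adjusted p = 0.000923), and both groups labelled shBCLAF1 lay clear of their partners. Bak1 had a term of 1.01 ± 0.19 (limma adjusted p = 0.0028), being higher with the label in Art cells and at -0.16 in the Rag_SPIC_tet_DOX pair. Bid had a term of 0.64 ± 0.20 (limma adjusted p = 0.0355) and Bcl2l1 of -0.43 ± 0.12 (limma adjusted p = 0.0208). The term of Bid passed without Art_shBCLAF1 replicate 2, Rag_SPIC_tet_DOX replicate 2 or Art replicate 3, but not without any one of the other 9 libraries (limma adjusted p between 0.0502 and 0.0880) or with libraries centred on their medians (limma adjusted p = 0.0527). That of Bcl2l1 did not pass without Art_shBCLAF1 replicate 2 or Rag_SPIC_tet_DOX_shBCLAF1 replicate 1 or 3 (limma adjusted p between 0.0511 and 0.0615). Mcl1, at -0.34 ± 0.26, did not pass with all 12 libraries (limma adjusted p = 0.341) and did without Art replicate 3, at -0.61 (limma adjusted p = 0.000147). In that setting all 10 passed (2 positive and 8 negative), beside 26.6% and 27.8% of all genes. The median term was -0.86 over the members and 0.03 over all genes.

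**Figure D3:**
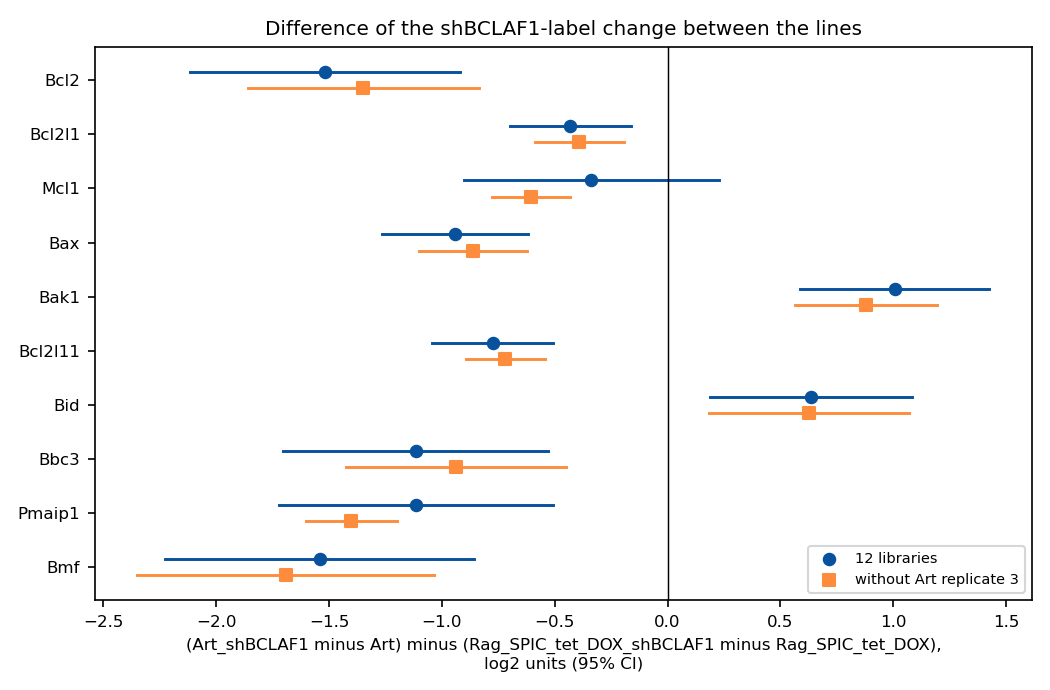
Interaction term of each member in log2 units (horizontal axis, with 95% confidence intervals): the difference Art_shBCLAF1 minus Art, less the difference Rag_SPIC_tet_DOX_shBCLAF1 minus Rag_SPIC_tet_DOX, over 12 libraries (circles) and without Art replicate 3 (squares). Bak1 (1.01) and Bid (0.64) lie right of 0 and Bmf (-1.54) and Bcl2 (-1.52) lie farthest left.

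Levels of different members were compared per length, as CPM per kilobase of exon (GENCODE vM21 union exon lengths, which are not those of the transcripts used in these cells). Shares are of the sum over Bcl2, Bcl2l1 and Mcl1, without other anti-apoptotic genes such as Bcl2l2. On that scale Bcl2 supplied 27.0% ± 3.48 of the sum in Art_shBCLAF1, 61.7% ± 9.60 in Art, 33.6% ± 0.893 in Rag_SPIC_tet_DOX_shBCLAF1, 50.4% ± 4.52 in Rag_SPIC_tet_DOX and 61.8% ± 2.11 in Rag_SPIC_tet_NoDOX (SD, n = 3 each). Mcl1 supplied 53.7% ± 1.96 in Art_shBCLAF1, 29.1% ± 9.55 in Art, 49.6% ± 0.745 in Rag_SPIC_tet_DOX_shBCLAF1, 38.3% ± 3.21 in Rag_SPIC_tet_DOX and 29.8% ± 2.02 in Rag_SPIC_tet_NoDOX. Mcl1 was thus the most abundant of these anti-apoptotic mRNAs per kilobase in both groups labelled shBCLAF1, and Bcl2 in the other 3 groups. That order rests on the exon lengths used, 9.157 kb for Bcl2 and 3.418 kb for Mcl1. In log2 CPM, without division by length, Bcl2 averaged above Mcl1 in every group. The means were 8.39 against 7.97 in Art_shBCLAF1 and 9.12 against 8.26 in Rag_SPIC_tet_DOX_shBCLAF1. In CPM per kilobase Bcl2 averaged 37.1 in Art_shBCLAF1 against 203 in Art, and 60.7 in Rag_SPIC_tet_DOX_shBCLAF1 against 117 in Rag_SPIC_tet_DOX.

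Of the mRNA per kilobase summed over the BH3-only members, Bbc3 supplied 33.3% in Art_shBCLAF1, 33.7% in Art, 37.0% in Rag_SPIC_tet_DOX_shBCLAF1, 36.0% in Rag_SPIC_tet_DOX and 36.1% in Rag_SPIC_tet_NoDOX. Bmf supplied 21.5% in Art_shBCLAF1, 39.1% in Art, 24.1% in Rag_SPIC_tet_DOX_shBCLAF1, 31.8% in Rag_SPIC_tet_DOX and 29.7% in Rag_SPIC_tet_NoDOX. By mean share Bmf led in Art and Bbc3 in the other 4 groups, and within Art replicate 3 Bbc3 led too. That order also rests on the exon lengths used, 2.124 kb for Bbc3, 5.253 kb for Bmf and 8.029 kb for Bcl2l11. In log2 CPM, without division by length, Bmf and Bcl2l11 both averaged above Bbc3 in every group. Bcl2l11 supplied 27.2% ± 2.55 in Art_shBCLAF1 against 17.4% ± 1.28 in Art, and 24.3% ± 1.10 in Rag_SPIC_tet_DOX_shBCLAF1 against 19.3% ± 1.61 in Rag_SPIC_tet_DOX. Bid, the smallest contributor in 4 of the groups, supplied 11.1% ± 2.14 in Art_shBCLAF1 against 1.85% ± 0.0170 in Art, and 6.11% ± 0.232 in Rag_SPIC_tet_DOX_shBCLAF1 against 3.53% ± 1.22 in Rag_SPIC_tet_DOX. In Art_shBCLAF1 its share was above that of Pmaip1, at 6.92%. Pmaip1 held its highest share, 16.0%, in Rag_SPIC_tet_NoDOX. These shares carry the same values as the levels above and were not tested again.

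**Figure D4:**
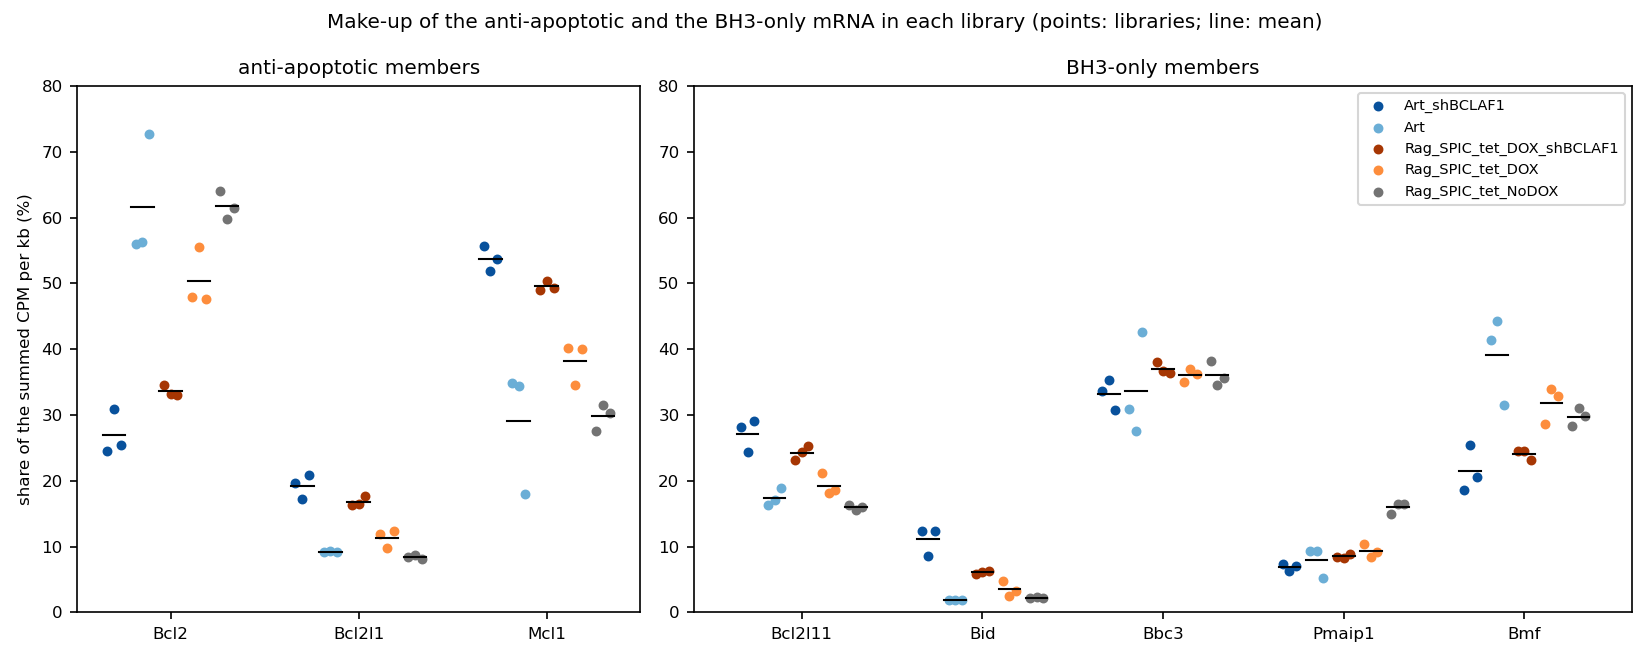
Share (vertical axis, percent of the summed CPM per kilobase) of each of 3 anti-apoptotic and 5 BH3-only members in each library (points) with the group mean (line). Bcl2 makes up 27.0% of the anti-apoptotic sum in Art_shBCLAF1 and 61.7% in Art, and Bid 11.1% of the BH3-only sum in Art_shBCLAF1 and 1.85% in Art.

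Other BCL2-family genes, those of the apoptosome, caspases and their inhibitors, and regulators of the family were read beside the members, with 8 of 15, 25 of 25 and 18 of 18 genes measured. For Art_shBCLAF1 against Art, 3 of the 8 other family genes were higher and 2 lower in limma. Bnip3 and Bnip3l, which act in mitophagy, were higher by 2.08 ± 0.26 (limma adjusted p = 0.00130) and 0.64 ± 0.11 (limma adjusted p = 0.00358), and Bcl2l12 by 0.43 ± 0.14 (limma adjusted p = 0.0480). Bcl2l15 was lower, at -1.88 ± 0.20 (limma adjusted p = 0.000754), and so was the anti-apoptotic Bcl2l2, at -0.62 ± 0.12 (limma adjusted p = 0.00644). Of the apoptosome and caspase list 7 were higher and 4 lower, with Endog (1.81), a mitochondrial nuclease, and the channel Vdac3 (1.43) among the higher, and the death receptor Fas (-2.20), Birc3 (-1.71) and the executioner Casp6 (-1.05) among the lower. Of the regulators 5 were higher, with Myc (4.72), Atf4 (1.20) and Pim3 (0.90) first, and 6 lower, with the p53 targets Cdkn1a (-0.92) and Mdm2 (-0.87) and with Foxo3 (-0.76), a known activator of Bcl2l11 and Bbc3, lowest. The medians of the 3 lists were 0.53, -0.01 and -0.24. Without Art replicate 3, 9 genes of the apoptosome and caspase list were higher and 8 lower. Bcl2l12 did not pass without any one of the Art_shBCLAF1 libraries or Art replicate 2, nor Endog without any one of the libraries other than Art replicate 3, nor Pim3 without Art_shBCLAF1 replicate 1 (limma adjusted p between 0.0600 and 0.142).

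For Rag_SPIC_tet_DOX_shBCLAF1 against Rag_SPIC_tet_DOX, 2 of the 8 other family genes were higher (Bok at 2.21 ± 0.68 and Bcl2l12 at 0.86 ± 0.15) and 3 lower (Bcl2l13 at -0.30, Bcl2l2 at -0.26 and Bnip3l at -0.25). Of the apoptosome and caspase list 8 were higher, among them Endog (1.58) and the death receptor Tnfrsf10b (0.83), and 10 lower, led by Casp6 (-1.02), Fas (-0.99) and Birc3 (-0.63). Of the regulators 4 were higher, with Myc (3.0), Pim1 (0.78) and Pim3 (0.60) first, and 6 lower, with Foxo3 (-0.69), Rela (-0.58) and Cdkn1a (-0.57) lowest. The medians were -0.22, -0.06 and 0.06. Without Rag_SPIC_tet_DOX replicate 2 the differences were smaller for Myc (1.77), Bok (1.43), Endog (1.06), Tnfrsf10b (0.51) and Pim3 (0.39), and all 5 passed. Without replicate 3 of that group or any one of the Rag_SPIC_tet_DOX_shBCLAF1 libraries, these 5 genes, Bcl2l2 and Bnip3l did not pass (limma adjusted p between 0.0542 and 0.135). Fas, Birc3, Casp6, Foxo3 and Cdkn1a were among the lower genes with the label in both lines, as were Bcl2, Bmf, Pmaip1 and Bbc3.

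In the comparisons without the hairpin label few of these genes passed. For Art against Rag_SPIC_tet_NoDOX the regulators Myc (-1.53 ± 0.16, limma adjusted p = 0.0112) and Mdm2 (-0.60 ± 0.09, limma adjusted p = 0.0252) were lower. None of the other family genes or of the apoptosome and caspase list passed in limma, with 3 and 4 at unadjusted p below 0.05. Without Art replicate 3, 1 of the 8 other family genes was higher and 3 lower, of the apoptosome and caspase list 7 were higher and 4 lower, and of the regulators 5 were higher and 6 lower. Myc and Mdm2 did not pass without any one of the other 5 libraries (limma adjusted p between 0.0608 and 0.174). For Rag_SPIC_tet_DOX against Rag_SPIC_tet_NoDOX, Mdm2 (-0.87 ± 0.09, limma adjusted p = 0.00558) and the stress factor Ddit3 (-0.48 ± 0.08, limma adjusted p = 0.0179) were lower, and no gene of the other 2 lists passed in limma, with 1 and 6 at unadjusted p below 0.05. Without Rag_SPIC_tet_DOX replicate 2, 2 of the other family genes were higher and 0 lower, of the apoptosome and caspase list 5 were higher and 4 lower, and of the regulators 3 were higher and 3 lower. Neither Mdm2 nor Ddit3 passed without Rag_SPIC_tet_NoDOX replicate 1 or 3, nor Ddit3 without Rag_SPIC_tet_DOX replicate 3 (limma adjusted p between 0.0620 and 0.126).

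The interaction term passed for 4 of the 8 other family genes. It was positive for Bnip3 (2.26) and Bnip3l (0.89) and negative for Bcl2l15 (-2.27), and Bcl2a1b, one of several near-identical gene copies, rested on 0 to 48 reads a library and is given no size. Of the apoptosome and caspase list 5 terms were positive, Vdac1 (1.25) and Vdac3 (1.05) among them, and 2 negative, Fas (-1.21) and Birc3 (-1.08). Of the regulators Fbxw7 (-0.70), part of the ubiquitin ligase that marks MCL1 for degradation, and Mdm2 (-0.53) had negative terms. The limma adjusted p of these genes was between 0.000594 and 0.0379. Without Art replicate 3, 4 terms of the other family genes were positive and 2 negative, 7 and 8 of the apoptosome and caspase list, and 3 and 4 of the regulators. Fas did not pass without Art replicate 1, Rag_SPIC_tet_DOX replicate 3 or Rag_SPIC_tet_DOX_shBCLAF1 replicate 1 or 2 (limma adjusted p between 0.0504 and 0.0697), and Fbxw7 and Bcl2a1b each lost their call without any one of 8 libraries (limma adjusted p between 0.0580 and 0.0858).

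The genes whose levels over the 15 libraries were most like those of the 3 most variable members, among genes averaging over 3 log2 CPM, were Vmac, Polk and Ppp1r32 for Pmaip1 (Pearson r = 0.976, 0.973 and 0.968). For Bcl2 they were Birc3 (0.993), H2-T23 (0.993) and Pgf (0.992), and for Bmf Il12a (0.991), Patj (0.989) and Rnf167 (0.988). The points share their libraries, depth and the 5 groups, so that the r values mostly describe a like order of group means.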

How the data were processed

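RNA was sequenced in 15 libraries, 3 in each of 5 groups taken from the labels. The submitters' processing notes name Subread, featureCounts 1.4.5, limma and edgeR, and the build mm9, with no role or order. The authors deposited 4 tables with log2 CPM of every library, on an effective library size with 0.5 reads added. Per the file headers they also hold the authors' log2 fold changes and p-values, raw and adjusted, and each lists genes with an adjusted p up to 0.0499. The log2 values were identical where tables shared a gene (largest difference 0.0), and 100% of values under 1000 reads came out whole within 0.05 reads. In all, 152 repeated rows were merged. The column for Art replicate 3 differs from its label by 1 character.

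Here limma 3.58.1 in R 4.3.3, with a mean-variance trend, was fitted to the 6 libraries of each pair, to 12 for the interaction and to 15 for the F test. Two-sided p-values were Benjamini-Hochberg adjusted over 11551 genes, with a threshold of 0.05. Genes absent from all 4 tables were not analysed, and the tables had been selected by the authors' tests on these comparisons. The fit of the pairs was tested on simulated data in which all libraries of a pair had equal spread. That test does not cover a library that deviates over many genes, such as Art replicate 3. Python 3.11.15, numpy 2.4.6, pandas 2.3.3 and matplotlib 3.10.9 did the rest. Replicates of one number did not deviate together throughout, so the number was not used as a pairing. The text names all 10 members, from each wider list the 3 changed genes highest and the 3 lowest in each comparison, the 3 genes most like each of the 3 most variable members, and Spic, Bclaf1 and Myc. Some genes that this rule picks are not reported here. Members and lists were chosen with earlier results of these data known. Alternatives were 2 reads added, low values left out, other scaling, array weights, all libraries in one fit, a replicate block and leaving out each library. Promoters are RefSeq's, on GRCm38.p6, a build other than the authors', so no other coordinates are given.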

Additional observations from a re-analysis of the deposited data

Results flagged for a closer look

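For 9 members the difference between the libraries labelled shBCLAF1 and their partners was not the same in Art and Rag_SPIC_tet_DOX cells, by the interaction term in limma. These cells differ in line, SPIC_tet and DOX, which cannot be told apart. The term, which is Art_shBCLAF1 minus Art less Rag_SPIC_tet_DOX_shBCLAF1 minus Rag_SPIC_tet_DOX, was -1.54 for Bmf, -1.52 for Bcl2, -1.12 for Bbc3, -1.11 for Pmaip1, -0.94 for Bax, -0.78 for Bcl2l11, -0.43 for Bcl2l1, 1.01 for Bak1 and 0.64 for Bid, on the log2 scale. Beside them, 14.3% of all genes had a positive and 17.0% a negative term. Those of Bid and Bcl2l1 did not pass in several settings with a library left out, and that of Bid also not with centred libraries.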

How the results depend on the processing

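The counts in this paragraph have no share of all genes beside them and are no result about the members alone. Calls over all genes moved with the setting too. For Art against Rag_SPIC_tet_NoDOX 2.58% were higher and 2.56% lower, against 23.2% and 24.2% without Art replicate 3. For Rag_SPIC_tet_DOX against Rag_SPIC_tet_NoDOX they were 3.16% and 8.67%, against 20.0% and 19.6% without Rag_SPIC_tet_DOX replicate 2. The number of members changed for Art against Rag_SPIC_tet_NoDOX was 0, 2 with all 15 libraries in one fit and 8 with array weights. It ranged from 0 to 7 when a library was left out, the 7 being without Art replicate 3. For Rag_SPIC_tet_DOX against Rag_SPIC_tet_NoDOX it was 1, with 2 when low values were left out, 10 with array weights and 1 to 7 with a library left out (3 without Rag_SPIC_tet_DOX replicate 1, 7 without replicate 2). For Rag_SPIC_tet_DOX_shBCLAF1 against Rag_SPIC_tet_DOX it was 6, with 4 under the replicate block, 9 with array weights and 4 to 7 with a library left out. For Art_shBCLAF1 against Art it was 8, with 10 under array weights and 7 to 10 with a library left out. The interaction passed for 9 members (7 to 10 with a library left out) and the F test for 9 (9 to 10). The array weights had not converged and ran from 0.00277 for Art replicate 3 to 1317 for Rag_SPIC_tet_DOX replicate 3.

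The replicate block changed no other call than those of Bcl2l1 and Bbc3 given above. Among the members' single results 567 of 650 kept their direction and side of the threshold, 28 lost the call, 51 gained it and 4 changed sign, all of them small. These were Bax for Art against Rag_SPIC_tet_NoDOX with array weights (-0.00455), Bid for Rag_SPIC_tet_DOX against Rag_SPIC_tet_NoDOX without Rag_SPIC_tet_DOX replicate 1 (-0.0253, up to 0.289 without replicate 2), and Mcl1 for Rag_SPIC_tet_DOX_shBCLAF1 against Rag_SPIC_tet_DOX without that library (-0.00575, up to 0.0609 without replicate 2) and with libraries centred on their medians (-0.0686). The calls lost when 1 library was left out were those of Bax, Bbc3, Bcl2l1 and Bid named beside their results, and Bbc3 also lost its call for Rag_SPIC_tet_DOX_shBCLAF1 against Rag_SPIC_tet_DOX with all 15 libraries in one fit (limma adjusted p = 0.0979). The cause was not tested. Art replicate 3 had the fewest reads, 5.81 M. Over all genes it lay 0.942 and 0.950 log2 units (root mean square) from Art replicates 1 and 2, which lay 0.267 apart. The part of depth in that distance was not tested.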
